A study of Mus musculus with 5 samples.

Results

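The genes described here are those of the complement system, the cascade of plasma proteins, inhibitors and receptors that marks and lyses foreign cells. They were given as a list of 34 gene symbols, and every non-control probe whose gene name, or whose accession's current symbol, was on that list was taken. Of the 34 genes 33 were matched, by 46 probes, out of 28785 gene names on the array, and 23 of them entered the tests, as did 19308 genes in all. No probe was matched to C7 under this rule.

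The study measured RNA from mouse cell lines on 5 one-colour microarrays. The induced hepatic progenitor cells (iHPC) were made from the neural progenitor line NSBAg2 with pMXs retroviruses for 9 transcription factors (iHPC 9F) or 10 (iHPC 10F), whose names are not given in the sources used here. G418 was added 3 weeks after infection and kept for 1 week. The hepatic progenitor cells (HPC) are the lines HB1, from C57BL6J mice, and HNG2, from STOCK Tg(Nanog-GFP, Puro)1 Yam mice, each established from E13.5 fetal liver. The neural progenitor cells (NPC) are NSBAg2 itself, 1 array with no replicate, derived from the ES cell line BAg73C2, in which beta-geo is knocked into Afp. That allele is therefore shared by iHPC and NPC, and G418 selected for transcription of Afp, a fetal liver gene. Nothing in the labels makes 9F and 10F, or HB1 and HNG2, repeats of 1 culture, so a p-value reflects only the spread within these pairs of unlike lines, which may be partly technical, with 2 residual degrees of freedom.

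Complement is started along 3 routes. In the classical route C1q binds antibody and its proteases C1r and C1s cleave C4 and C2, in the lectin route mannose-binding lectins and ficolins act through MASP proteases, and in the alternative route factor B, factor D and properdin amplify cleaved C3. All lead to cleavage of C5 and to the membrane attack complex, a pore built of C5b, C6, C7, C8 and C9. Hepatocytes are the main source of most of the plasma components, whereas C1q comes largely from macrophages.

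The share of non-control spots well above background was 58.9% to 65.6%, and 0 spots were saturated. All 12 hepatoblast or hepatocyte markers were well above background on each iHPC and HPC array, against 4 of 12 on the NPC array. Of 10 neural progenitor markers, 7 were so on each iHPC array, 7 on HB1, 8 on HNG2 and 8 on NPC. These counts do not show levels. Sox2 and Pax6 were called lower than NPC in iHPC (limma adjusted p = 0.034 and 0.0442) and in HPC (0.0113 and 0.0126). Sox2 was not well above background in HPC. No other marker of that list was called against NPC. HB1 and HNG2 each had a scan day of their own and the other 3 arrays shared 1, so a difference from HPC cannot be told apart from one of scan day. A level below is a log2 signal relative to the 75th percentile of its array. Levels are compared between arrays for 1 probe, not between genes.

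The 23 tested complement genes fell into few patterns. Of these, 5 were called higher than NPC in both kinds of hepatic progenitor (C3, Cfb, Cfi, Vtn and Cd55). Hc, which encodes C5, was higher in iHPC than in either other group. The classical proteases C1ra, C1s and C1rl were lower in HPC than in iHPC and in NPC, and Serping1, which encodes their inhibitor, was highest in NPC, lower in iHPC and lowest in HPC. C2 and Clu were higher in HPC than in iHPC and in NPC, Masp2 was higher in iHPC than in HPC, and 10 genes passed no test. These are calls at a limma adjusted p under 0.05, and the comparisons share arrays. How many of all genes tested had the same joint calls was not counted.

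Between iHPC and NPC, which sets the induced cells against the line they were made from, 6 complement genes were higher and 1 was lower. That is 7 of 23 tested, or 30.4%, where 5.63% of all genes tested were called (2.8% higher, 2.84% lower). Between iHPC and HPC 6 were higher and 2 lower, 8 of 23 or 34.8%, against 5.42% of all genes (3.55% higher, 1.87% lower). Between HPC and NPC 7 were higher and 4 lower, 11 of 23 or 47.8%, against 15.6% of all genes (6.68% higher, 8.95% lower). The median log2 differences of the 23 genes were 0.79, 1.20 and 0.14 in the same order, beside 0.03, 0.05 and -0.02 over all genes. To be tested, a gene had to be well above background on all arrays of some group, so some of these genes were tested because they were high in 1 group, and the shares are a description of the list.

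These counts depend on single arrays. Without HPC replicate 1 (HB1) they were 17, 17 and 18 in the same order, while 34.9%, 35.9% and 49.3% of all genes were called. Without HPC replicate 2 (HNG2) they were 17, 17 and 19, while 34.9%, 36.0% and 50.4% of all genes were called. Without iHPC replicate 1 (9F) or iHPC replicate 2 (10F) the limma count was 0 in each comparison, as it was over all genes; at an unadjusted p under 0.05 it was then 8, 13 and 14 complement genes without 9F and 8, 9 and 14 without 10F. The iHPC pair was the tighter pair: the median SD of the tested complement genes was 0.18 in iHPC and 0.55 in HPC, and over all genes 0.11 in iHPC and 0.37 in HPC. The split of calls between HPC and NPC, 7 higher and 4 lower, was 6 and 7 with normexp background correction. With dim probes kept in, calls were lost for Serping1 (iHPC against NPC, adjusted p = 0.0697) and for C1rl, C1s and Clu (iHPC against HPC, adjusted p = 0.0663, 0.0513 and 0.0644).

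**Figure D1:**
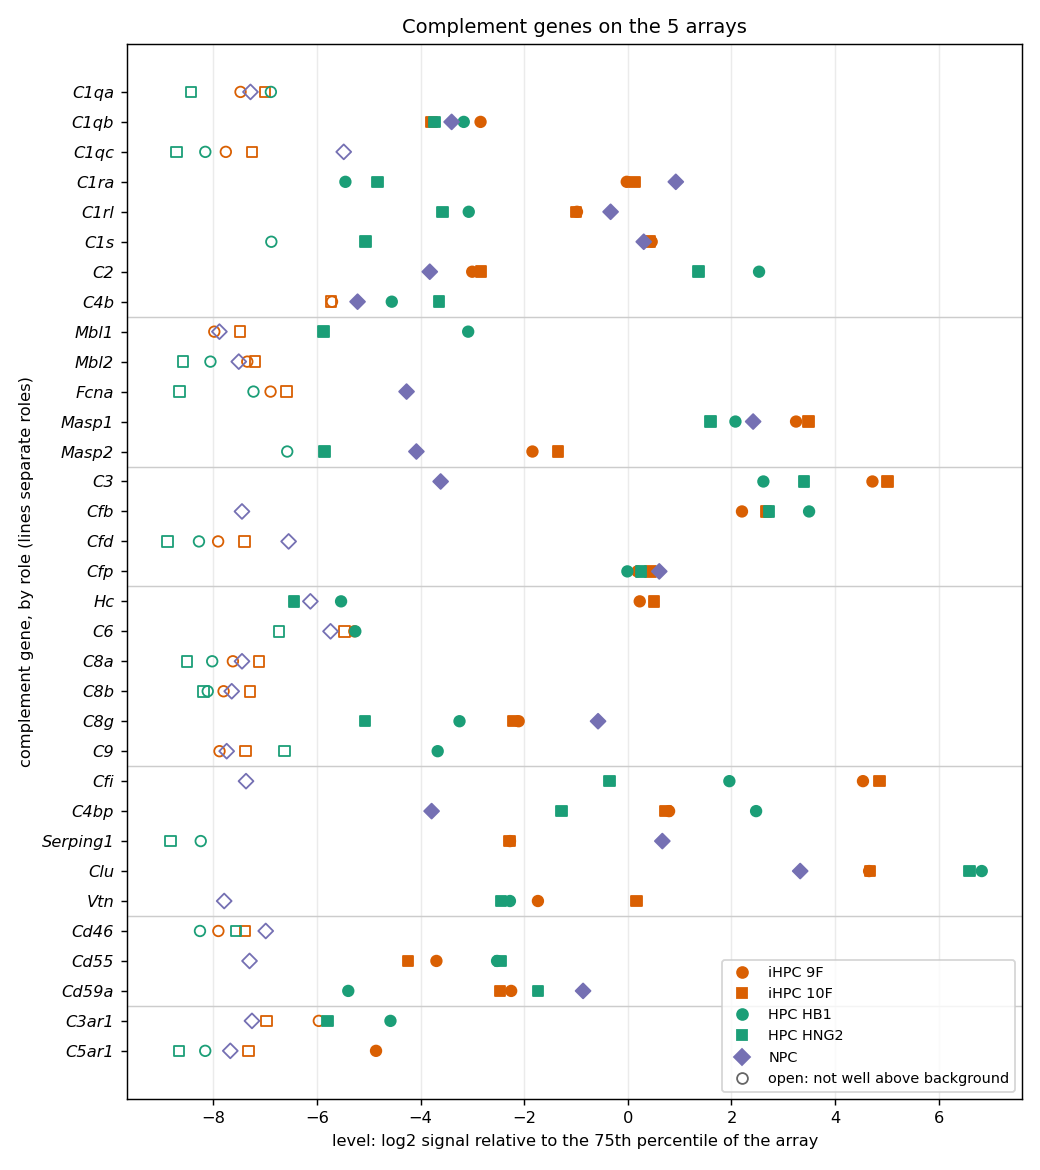
Levels of the 33 matched complement genes (rows, grouped by role) on the x axis as log2 signal relative to the 75th percentile of the array, for the arrays of iHPC 9F and 10F, HPC HB1 and HNG2, and NPC. Open symbols are values not well above background. For C1ra and C1s the iHPC and NPC symbols lie together on the right and the HPC symbols on the left, and for C3 and Cfi the NPC symbol lies far to the left of the other 4.

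Promoter sequence is shown for C3, Hc, C1ra and C1s, whose levels differed between groups, and for C4bp, which passed no test but is the other member with an HNF1 match. RefSeq windows on GRCm38.p6, from 250 bases before to 50 after a gene start, were matched to 26 of the 34 genes. Capitals mark every match, on either strand, to 6 motifs searched: C/EBP (TTGCNNAA), HNF1 (GTTAATNAT), HNF4 (CAAAGTCC), NF-kB (GGANTTNCC), STAT (TTCNNNGAA) and IRF (GAAANNGAA).
C3 (chr17:57228087-57228386, minus strand): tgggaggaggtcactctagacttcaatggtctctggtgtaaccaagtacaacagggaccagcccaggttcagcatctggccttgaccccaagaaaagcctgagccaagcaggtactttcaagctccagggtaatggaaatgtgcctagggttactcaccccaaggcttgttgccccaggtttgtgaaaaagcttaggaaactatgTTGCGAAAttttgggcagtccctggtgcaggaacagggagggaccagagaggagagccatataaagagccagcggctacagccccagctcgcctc
Hc (chr2:35061363-35061662, minus strand): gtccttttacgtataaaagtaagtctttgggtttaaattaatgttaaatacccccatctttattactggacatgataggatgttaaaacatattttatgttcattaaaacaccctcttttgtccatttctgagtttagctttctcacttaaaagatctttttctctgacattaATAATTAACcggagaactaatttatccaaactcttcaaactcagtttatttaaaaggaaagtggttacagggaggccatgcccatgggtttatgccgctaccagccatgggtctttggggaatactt
C4bp (chr1:130661569-130661868, minus strand): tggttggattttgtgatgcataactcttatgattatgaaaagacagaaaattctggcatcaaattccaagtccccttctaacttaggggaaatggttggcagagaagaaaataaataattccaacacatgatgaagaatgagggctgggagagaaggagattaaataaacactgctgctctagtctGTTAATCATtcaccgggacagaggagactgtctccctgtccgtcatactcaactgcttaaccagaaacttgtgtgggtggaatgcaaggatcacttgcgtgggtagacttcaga
C1ra (chr6:124512371-124512670, plus strand): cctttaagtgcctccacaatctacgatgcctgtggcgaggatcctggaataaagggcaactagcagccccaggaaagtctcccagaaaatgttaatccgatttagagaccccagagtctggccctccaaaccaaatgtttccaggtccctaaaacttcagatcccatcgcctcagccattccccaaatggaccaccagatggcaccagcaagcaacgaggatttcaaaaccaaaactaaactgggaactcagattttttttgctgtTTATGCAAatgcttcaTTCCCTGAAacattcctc
C1s (chr6:124542310-124542609, minus strand): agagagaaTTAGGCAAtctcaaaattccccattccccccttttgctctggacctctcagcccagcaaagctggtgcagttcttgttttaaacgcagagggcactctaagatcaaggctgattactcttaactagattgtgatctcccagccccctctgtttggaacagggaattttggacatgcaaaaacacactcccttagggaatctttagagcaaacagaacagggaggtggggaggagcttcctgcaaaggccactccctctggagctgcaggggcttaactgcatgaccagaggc
C3 had a C/EBP match 45 bases before the start. C4bp and Hc each had an HNF1 match, 64 and 77 bases before the start, and no other member with a window did. C1ra had a C/EBP match beginning 17 bases into the transcript and a STAT match at base 33, and C1s a C/EBP match 242 bases before the start of the window shown. RefSeq gives C1s another start, whose window (chr6:124542272-124542571) held no match. Of all 32817 windows 10.8% held the C/EBP letters, 0.801% HNF1, 1.42% HNF4, 3.95% NF-kB, 8.29% STAT and 8.55% IRF. Among the 26 members with a window, 5 held C/EBP (C1ra, C1rl, C1s, C3 and C9), 2 HNF1, 5 STAT (C1ra, C7, C8a, Masp2 and Vtn) and 5 IRF (C5ar1, C7, Cd46, Cd59a and Vtn), and 0 held HNF4 or NF-kB. A match is a run of letters, not a shown binding site.

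The proteases of the classical route separated the induced cells from fetal liver progenitors. C1ra, the protease that activates C1s, was at -0.02 and 0.13 in iHPC 9F and 10F, at -5.45 and -4.83 in HB1 and HNG2, and at 0.93 in NPC (probe at mm7 chr6:124605948-124606007). No HPC value came near those of the other groups. It was 36.6-fold higher in iHPC than in HPC (log2 difference 5.19, SE 0.30, adjusted p = 0.0192) and fell by 6.07 on the log2 scale in HPC relative to NPC (SE 0.37, adjusted p = 0.0115), while iHPC minus NPC was -0.87 (adjusted p = 0.263). Fewer cells making a transcript and less transcript per cell cannot be told apart in such bulk RNA.

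C1s, which cleaves C4 and C2 and whose current symbol is C1s1, had the same pattern. It was at 0.46 and 0.43 in iHPC 9F and 10F, at -6.88 and -5.07 in HB1 and HNG2, and at 0.31 in NPC (mm7 chr6:124555678-124555737), and HB1 was not well above background. It was 85.6-fold higher in iHPC than in HPC (log2 difference 6.42, SE 0.70, adjusted p = 0.0356), a mean that includes HB1 as measured. Without HPC replicate 1 (HB1) the difference was 5.51, and without HPC replicate 2 (HNG2) C1s was at least 86.4-fold higher in iHPC. The call against HPC was lost with quantile normalization (adjusted p = 0.0514). Against NPC it fell by 6.28 in HPC (SE 0.85, adjusted p = 0.029; -5.37 without HPC replicate 1, and at least 78.5-fold lower without HPC replicate 2), and iHPC minus NPC was 0.14 (adjusted p = 0.947).

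C1rl encodes a C1r-like protease. Its levels were -0.98 and -1.0 in iHPC 9F and 10F, -3.07 and -3.58 in HB1 and HNG2, and -0.33 in NPC. It was 5.04-fold higher in iHPC than in HPC (adjusted p = 0.037) and fell by 2.99 in HPC relative to NPC (SE 0.32, adjusted p = 0.0206). C1rl, C1ra and C1s follow each other on chromosome 6 in RefSeq with 0 protein-coding genes between neighbours. Mouse C1r and C1s have near-identical copies beside them, which these probes may not separate. The probe named for the copy C1s2 was well above background on no array, between -8.86 and -5.97. The other probe of C1s was well above background in iHPC and NPC and not in HPC.

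Serping1 encodes C1 inhibitor, which inactivates C1r, C1s and the MASP proteases. Its level was -2.28 in both iHPC 9F and 10F, -8.24 and -8.83 in HB1 and HNG2, neither well above background, and 0.67 in NPC (mm7 chr2:84609527-84611033). The groups lay apart in 3 steps. It fell by 2.94 in iHPC relative to NPC (SE 0.35, adjusted p = 0.0393), was at least 16.3-fold higher in iHPC than in HPC (adjusted p = 0.0159) and was at least 125-fold lower in HPC than in NPC (adjusted p = 0.00992).

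Markers of fibroblasts and astrocytes, cell types that also make C1r, C1s and C1 inhibitor, differed between the arrays too. Of 10 fibroblast or stellate cell markers 6 and 7 were well above background in iHPC 9F and 10F, 3 and 7 in HB1 and HNG2, and 9 in NPC. Their summed level was 3.70 and 3.75 in iHPC, 3.83 and 4.23 in HPC and 7.66 in NPC. In iHPC and HPC most of it was Acta2, at 3.42 and 3.46 in iHPC and 3.81 and 4.05 in HPC. Acta2 and Col1a1 were higher on both HPC arrays than on both iHPC arrays, with Col1a1 not well above background in iHPC. Pdgfra, Pdgfrb, Dcn, Thy1, Col1a2 and Col3a1 were lower on both HPC arrays. Des and Lum were not well above background in iHPC or HPC. None of these differences between iHPC and HPC passed a test. Against NPC, Pdgfra, Col1a2, Dcn, Des and Col3a1 were called lower in HPC (limma adjusted p = 0.0134, 0.0225, 0.0212, 0.0242 and 0.0372). Pdgfra and Col1a2 were also called lower in iHPC than in NPC (0.041 and 0.0471). No other marker of that list was called against NPC. Of 7 astrocyte markers 5 and 4 were well above background in iHPC, 2 and 3 in HPC and 4 in NPC. Their summed levels were 0.54 and 0.63 in iHPC, -2.84 and 0.41 in HPC and 2.52 in NPC. The defining astrocyte marker Gfap was well above background on no array. Slc1a3 was at -1.16 and -0.95 in iHPC, not well above background in HPC, and at 0.42 in NPC. It was at least 38.0-fold higher in iHPC than in HPC (limma adjusted p = 0.0159). In HPC it was at least 106-fold lower than in NPC (adjusted p = 0.00992). S100b went the other way, lower on both iHPC arrays than on both HPC arrays. No astrocyte marker but Slc1a3 was called in any comparison. The part of these markers in the result was not tested.

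C2, the protease part of the classical C3 convertase, ran the other way. It was at -3.00 and -2.83 in iHPC 9F and 10F, at 2.53 and 1.36 in HB1 and HNG2, and at -3.82 in NPC (mm7 chr17:32958754-32958813). It fell by 4.87 in iHPC relative to HPC (SE 0.47, adjusted p = 0.0316) and was 54.6-fold higher in HPC than in NPC (adjusted p = 0.019), and iHPC minus NPC was 0.90 (SE 0.58, adjusted p = 0.436). C4b, its partner in the convertase, was at -5.71 and -5.73 in iHPC, not well above background, at -4.56 and -3.64 in HPC and at -5.22 in NPC, and passed no test. C4b has a close copy, C4a, that its probe may also detect. The probe named for C4a was well above background on no array, between -7.94 and -7.06.

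The C1q chains gave little signal. C1qa and C1qc were not well above background on any array, between -8.72 and -5.48. C1qb was at -2.84 and -3.79 in iHPC 9F and 10F, at -3.17 and -3.73 in HB1 and HNG2, and at -3.40 in NPC, so the groups overlapped, and no test passed (iHPC minus NPC 0.09, adjusted p = 0.949). Of 15 macrophage markers 6 and 6 were well above background in iHPC 9F and 10F, 5 and 6 in HB1 and HNG2, and 4 in NPC, with summed levels of 2.61 and 2.72 in iHPC, 1.43 and 2.83 in HPC and 0.68 in NPC. Adgre1, Fcgr1, Clec4f, Tyrobp, Cx3cr1, Spi1 and Laptm5 were well above background on no array. Ptprc, a marker of blood cells, was well above background in iHPC only, at -3.29 and -2.83, and was at least 5.78-fold higher there than in NPC (adjusted p = 0.0304) and at least 9.48-fold higher than in HPC (adjusted p = 0.0197). Csf1r was at 0.25 and 0.46 in iHPC, -2.52 and -4.74 in HPC and -5.49 in NPC, and Mrc1 at -2.52 and -2.53 in iHPC, -3.93 and -1.85 in HPC and -7.54 in NPC. Neither passed a test, and neither was well above background in NPC. Aif1 went the other way and was well above background in NPC only, at -4.83, against -6.10 and -5.91 in iHPC. It was called lower in HPC than in NPC (adjusted p = 0.0385). Cd68, Cd14 and Marco passed no test, and Lyz2 was not tested. Cd68 was at -1.38 and -1.48 in iHPC, -2.77 and -2.15 in HPC and -1.76 in NPC. Cd14, which made up most of each summed level, was at 2.05 and 2.14 in iHPC, 1.12 and 2.70 in HPC and 0.20 in NPC. The part of these markers in the complement levels was not tested.

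In the lectin route Masp2, the protease that cleaves C4 and C2 there, was at -1.84 and -1.34 in iHPC 9F and 10F, at -6.57 and -5.85 in HB1 and HNG2, and at -4.08 in NPC. HB1 was not well above background. It was 24.6-fold higher in iHPC than in HPC (log2 difference 4.62, SE 0.37, adjusted p = 0.0246), and the excess over NPC did not pass (2.49, SE 0.46, adjusted p = 0.0759). The other 2 probes of Masp2 were well above background in iHPC only. The bounds on their excess there were 5.39-fold and 7.84-fold over HPC and 3.29-fold and 4.78-fold over NPC, with no test of their own.

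The recognition molecules of that route were mostly dim. Mbl2 was not well above background on any array. Mbl1, a mannose-binding lectin, was well above background in HPC only, at -3.08 in HB1 and -5.87 in HNG2, against -7.98 and -7.48 in iHPC 9F and 10F and -7.88 in NPC, and passed no test. Fcna, which encodes ficolin A, was well above background in NPC only, at -4.27 there, against -6.90 and -6.59 in iHPC and -7.23 and -8.65 in HPC (HPC minus NPC adjusted p = 0.0508).

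Masp1 depended on the probe. The brightest of 4 probes, at mm7 chr16:23127084-23127143, gave 3.25 and 3.49 in iHPC 9F and 10F, 2.08 and 1.60 in HB1 and HNG2, and 2.42 in NPC, and passed no test (iHPC minus HPC 1.53, adjusted p = 0.071). It is named for a cDNA clone rather than a RefSeq transcript. The brighter RefSeq probe, at mm7 chr16:23108101-23108160, gave -4.87 and -4.17 in iHPC, -3.55 and -5.56 in HPC and -3.98 in NPC, with iHPC minus NPC at -0.54 where the first probe gave 0.95. Masp1 makes several transcripts, among them MASP-3, and which of them each probe detects is not given in the sources used here.

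**Figure D2:**
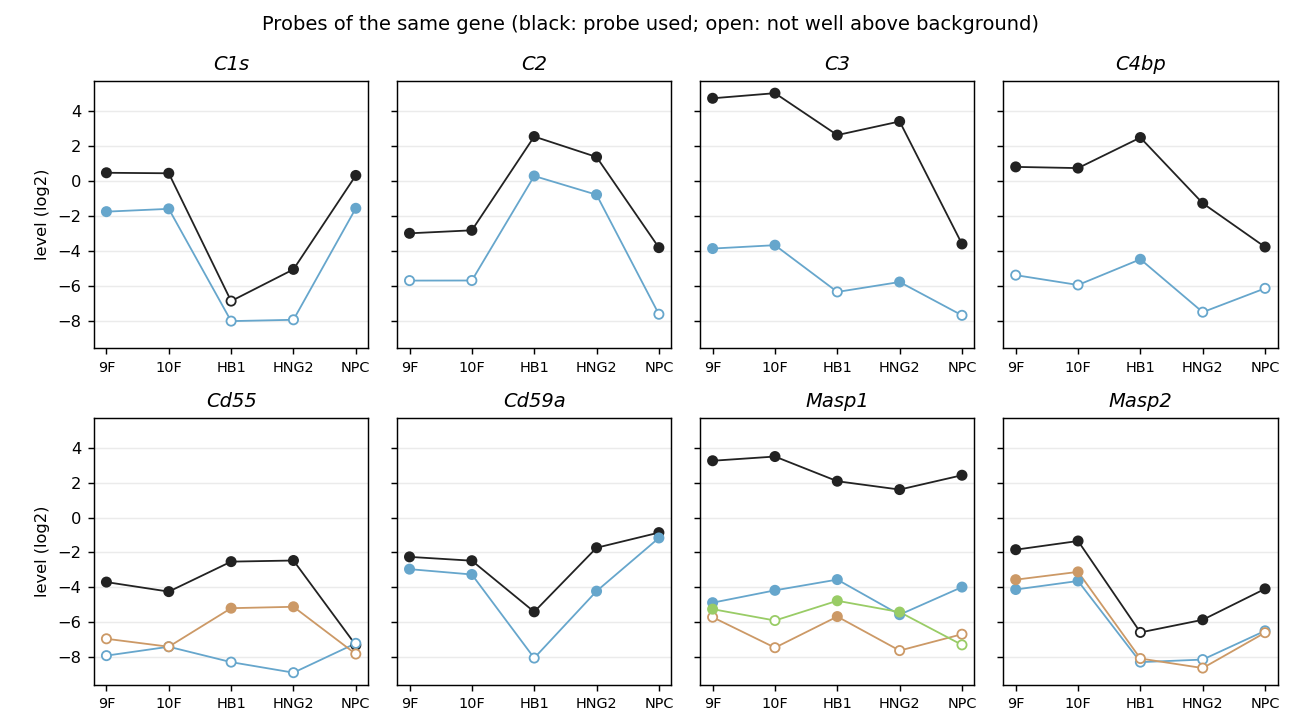
Levels (y axis, log2 relative to the 75th percentile of the array) of every probe of 8 complement genes on the 5 arrays (x axis), with the probe used in black and open symbols not well above background. For C1s and Masp2 every probe lies lower on the HPC arrays than on the iHPC arrays, and for C2 every probe lies higher there, whereas the Masp1 probes have no order in common.

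C3, on which all routes converge, was higher in both hepatic progenitor types than in NPC. It was at 4.72 and 5.01 in iHPC 9F and 10F, at 2.62 and 3.40 in HB1 and HNG2, and at -3.61 in NPC (mm7 chr17:55414567-55414626). The probe is spotted 10 times on each array, and the SD over the unflagged spots was 0.05 and 0.06 in iHPC, 0.05 and 0.07 in HPC and 0.13 in NPC, which is spot noise within an array and not spread between samples. It was 357-fold higher in iHPC than in NPC (log2 difference 8.48, SE 0.44, adjusted p = 0.0269) and 98.3-fold higher in HPC than in NPC (6.62, SE 0.44, adjusted p = 0.0126). The iHPC values lay above both HPC values, with a difference of 1.86 that did not pass (SE 0.36, adjusted p = 0.081). The other of the 2 probes of C3 was dimmer and had no test of its own. It was at -3.88 and -3.68 in iHPC, -6.36 and -5.79 in HB1 and HNG2, and -7.70 in NPC. On that probe HB1 and NPC were not well above background.

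Factor B (Cfb), the protease of the alternative C3 convertase, was at 2.20 and 2.66 in iHPC 9F and 10F, at 3.50 and 2.72 in HB1 and HNG2, and at -7.45 in NPC, not well above background. It was at least 260.5-fold higher in iHPC than in NPC (adjusted p = 0.0269) and in HPC exceeded NPC at least 416-fold (adjusted p = 0.00992). Cfb and C2 are direct neighbours on chromosome 17, with 0 protein-coding genes between them. Their levels differed in iHPC: Cfb in iHPC was within 0.68 of HPC (iHPC minus HPC -0.68, adjusted p = 0.336), whereas C2 in iHPC lay within 0.90 of NPC. Cfd, factor D, was not well above background on any array. Cfp, which encodes properdin, was at 0.19 and 0.43 in iHPC, -0.01 and 0.26 in HPC and 0.61 in NPC and passed no test (HPC minus NPC -0.48, adjusted p = 0.293).

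In the terminal route only Hc and C8g were tested. Hc was at 0.23 and 0.51 in iHPC 9F and 10F, at -5.53 and -6.44 in HB1 and HNG2, and at -6.13 in NPC, where it was not well above background (mm7 chr2:34990690-34990749). The HPC values lay on either side of the NPC value, far below iHPC. It was at least 62.2-fold higher in iHPC than in NPC (adjusted p = 0.0286) and 81.9-fold higher in iHPC than in HPC (log2 difference 6.36, SE 0.40, adjusted p = 0.0204), and HPC minus NPC was 0.14 (adjusted p = 0.861).

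The pore subunits were dim. C8a and C8b were not well above background on any array, and C9 was so only in HB1, at -3.67, against -6.63 in HNG2, -7.88 and -7.38 in iHPC 9F and 10F, and -7.74 in NPC. C6 was well above background in iHPC 9F and HB1 only, at -5.28 and -5.26. C8g, the lipocalin subunit of C8, was at -2.11 and -2.22 in iHPC, -3.25 and -5.07 in HPC and -0.57 in NPC, so that NPC was the highest array, and passed no test (HPC minus NPC -3.59, SE 0.86, adjusted p = 0.0745).

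Among the soluble inhibitors is factor I (Cfi), which cleaves C3b and C4b. It was at 4.54 and 4.86 in iHPC 9F and 10F, at 1.96 and -0.36 in HB1 and HNG2, and at -7.37 in NPC, not well above background (mm7 chr3:129714547-129714606). It was at least 1253-fold higher in iHPC than in NPC (adjusted p = 0.0304) and in HPC exceeded NPC at least 84.0-fold (adjusted p = 0.0278). That bound was 187-fold without HPC replicate 2 (HNG2) and 37.6-fold without HPC replicate 1 (HB1). The iHPC excess over HPC, 3.90, did not pass (SE 0.89, adjusted p = 0.102). C4bp, which assists factor I, was at 0.80 and 0.73 in iHPC, 2.48 and -1.28 in HPC and -3.79 in NPC. The HPC lines lay on either side of iHPC, and no comparison passed (iHPC minus NPC 4.55, SE 1.72, adjusted p = 0.228).

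Vitronectin (Vtn), which blocks insertion of the pore, was at -1.74 and 0.17 in iHPC 9F and 10F, at -2.28 and -2.45 in HB1 and HNG2, and at -7.79 in NPC, not well above background. It was at least 28.0-fold higher in iHPC than in NPC (adjusted p = 0.0445; at least 14.5-fold without iHPC replicate 2 and at least 54.3-fold without iHPC replicate 1) and in HPC exceeded NPC at least 9.37-fold (adjusted p = 0.0407). With normexp background correction these calls were lost (adjusted p = 0.1 and 0.212), and likewise with dim probes kept in (0.0651 and 0.0582). Clusterin (Clu), which binds the same complex, was at 4.66 and 4.68 in iHPC, 6.83 and 6.59 in HPC and 3.33 in NPC. It fell by 2.04 in iHPC relative to HPC (SE 0.20, adjusted p = 0.0323) and was 10.4-fold higher in HPC than in NPC (adjusted p = 0.0134), and iHPC minus NPC was 1.34 (SE 0.25, adjusted p = 0.0769).

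**Figure D3:**
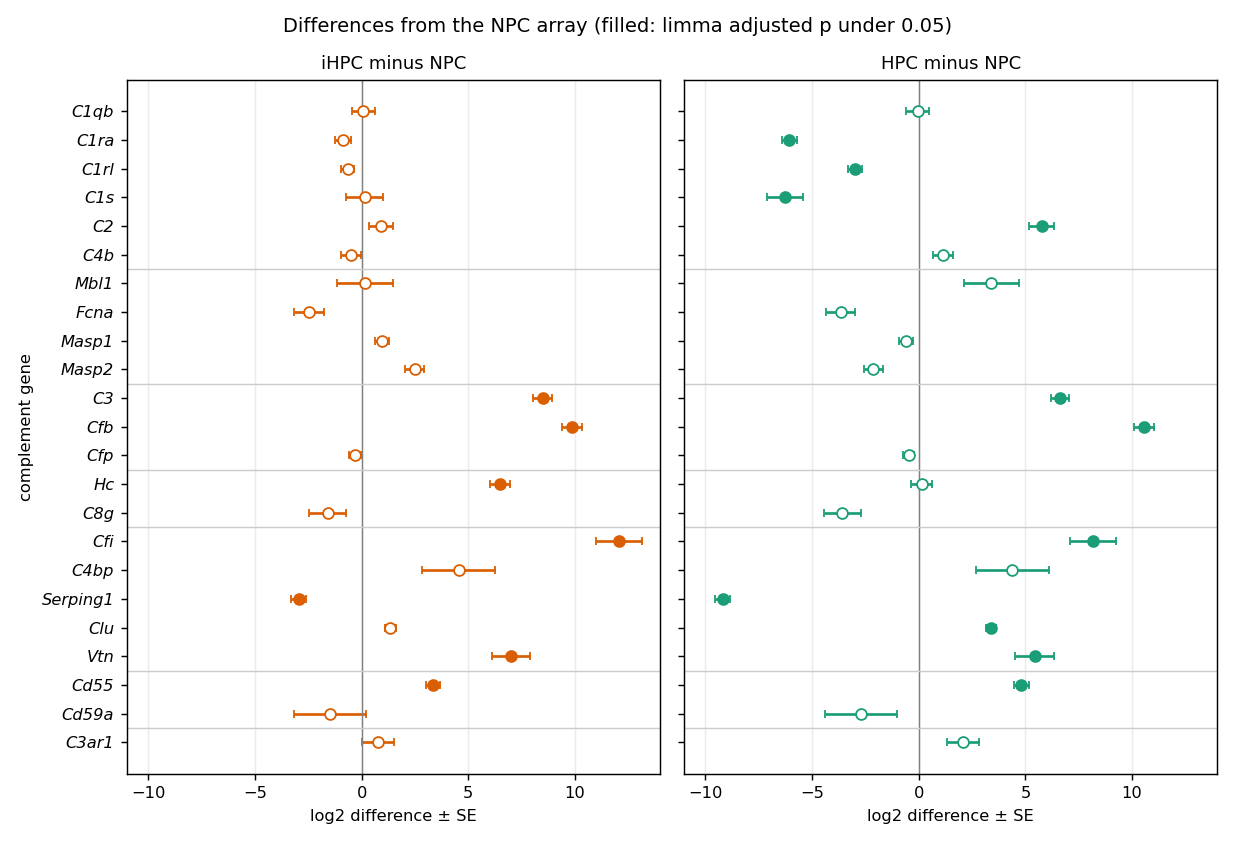
Log2 difference from the NPC array with its SE (x axes) for the 23 tested complement genes (rows), for iHPC on the left and HPC on the right, with filled symbols at a limma adjusted p under 0.05. C3, Cfb, Cfi, Vtn and Cd55 are filled to the right in both panels, and C1ra, C1rl and C1s are filled to the left only in the HPC panel. Both panels use the same NPC array, and values not well above background enter as measured.

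Of the membrane inhibitors, which protect the cell's own surface, Cd55, decay-accelerating factor, was at -3.69 and -4.24 in iHPC 9F and 10F, at -2.52 and -2.46 in HB1 and HNG2, and at -7.30 in NPC, not well above background. It was at least 3.08-fold higher in iHPC than in NPC (adjusted p = 0.0328) and in HPC exceeded NPC at least 8.57-fold (adjusted p = 0.0129). The iHPC call was lost with normexp (adjusted p = 0.2), with dim probes kept in (0.0563) and with the mean of all tested probes (0.0595). Of the 3 probes of Cd55 only the one used was well above background in iHPC. Another was so in HPC only, at -5.19 in HB1 and -5.11 in HNG2, and the last on no array. Cd59a, which stops C9 from joining the pore, was at -2.25 and -2.47 in iHPC, -5.40 and -1.73 in HPC and -0.86 in NPC and passed no test. Cd46, in mice a protein mainly of the testis, was not well above background on any array.

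The anaphylatoxin receptors, which sense C3a and C5a, were near background. C3ar1 was well above background in HPC only, at -4.58 in HB1 and -5.79 in HNG2, and passed no test. The other of its 2 probes was not well above background on any array. C5ar1 was well above background in iHPC 9F only, at -4.86, against -7.33 in iHPC 10F.

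**Figure D4:**
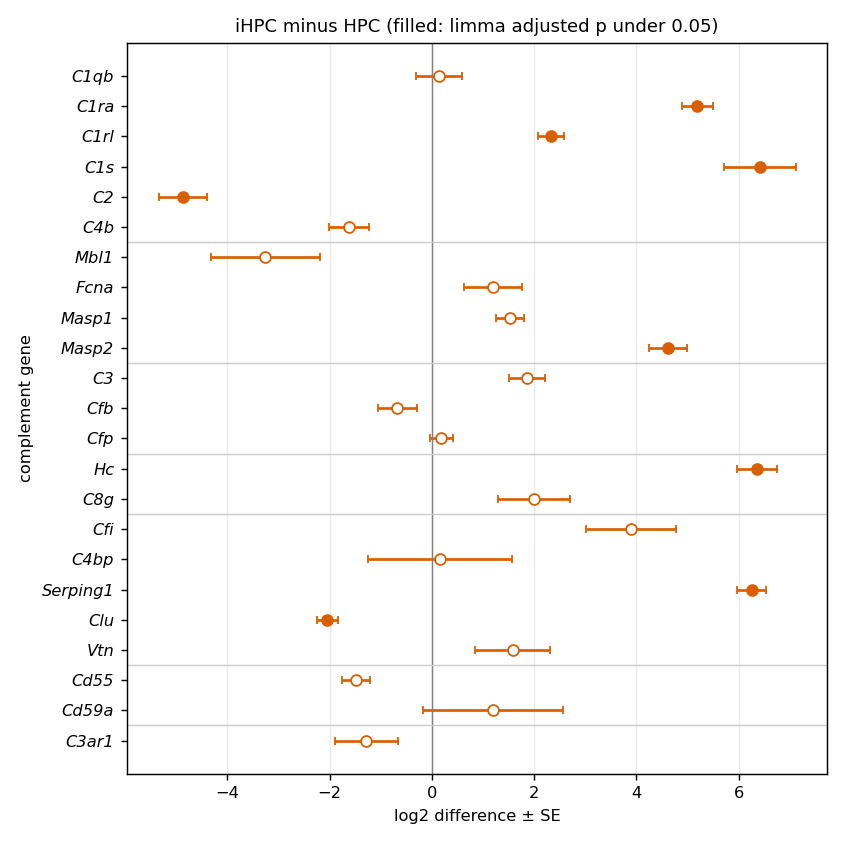
Log2 difference iHPC minus HPC with its SE (x axis) for the 23 tested complement genes (rows), with filled symbols at a limma adjusted p under 0.05. The 6 filled symbols to the right are C1ra, C1rl, C1s, Masp2, Hc and Serping1, and the 2 filled to the left are C2 and Clu. Unfilled symbols lie on both sides.

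Within each pair of arrays the values were compared without a test. Of 19 complement genes well above background on both iHPC arrays, 0 differed at least 4-fold between 10F and 9F, where 0.254% of all genes did. The median absolute log2 difference was 0.24 for these genes and 0.13 for all genes. The widest was Vtn, 1.91 higher on the log2 scale in 10F. HB1 and HNG2 were farther apart: 4 of 19 complement genes differed at least 4-fold, where 5.75% of all genes did, and the median absolute difference was 0.78, beside 0.48 for all genes.

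The 4 genes differed in both directions. C4bp was higher in HB1 than in HNG2 by 3.76 on the log2 scale, Mbl1 by 2.79 and Cfi by 2.32, and Cd59a was lower in HB1, with a difference of -3.67. C9 was well above background in HB1 and not in HNG2, whereas C1s and Masp2 were so in HNG2 and not in HB1. These are differences between 1 array of each line, from other strains and scan days.

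**Figure D5:**
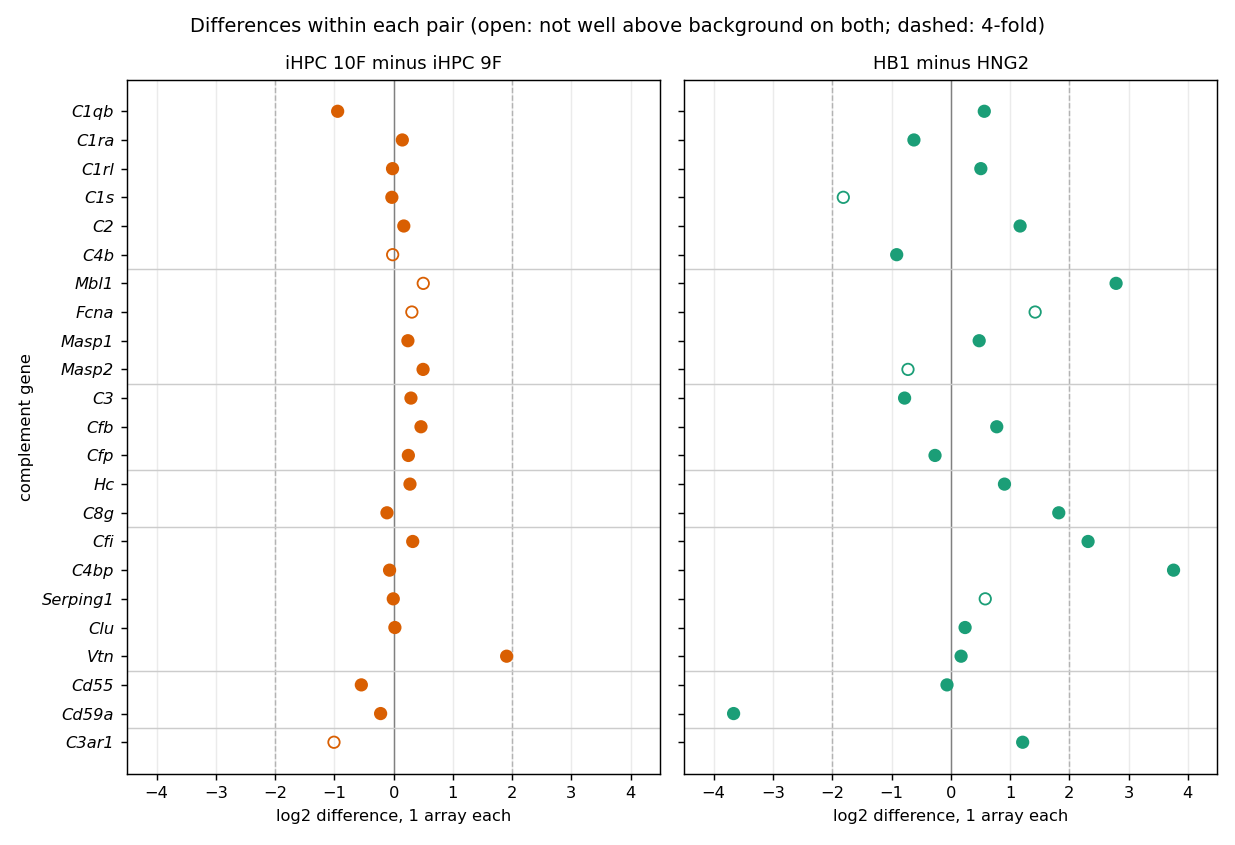
Log2 difference between the arrays of each pair (x axes), iHPC 10F minus 9F on the left and HB1 minus HNG2 on the right, for the 23 tested complement genes (rows). Open symbols were not well above background on both arrays, and dashed lines mark 4-fold. No iHPC symbol passes a dashed line, and C4bp, Mbl1, Cfi and Cd59a pass one in the HPC pair.

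Other complement genes were counted from a list of 33, of which 30 were matched and 20 tested. Between iHPC and NPC 2 were higher and 1 lower, where 5.63% of all genes were called, and between iHPC and HPC 3 were higher and 0 lower, where 5.42% were. Between HPC and NPC 2 were higher and 5 lower, where 15.6% were. Cpn1, a subunit of the carboxypeptidase that inactivates C3a and C5a, was at -2.64 and -2.46 in iHPC, -0.61 and -1.88 in HPC and -7.52 in NPC, not well above background. It was at least 8.24-fold higher in iHPC than in NPC (adjusted p = 0.0431) and in HPC exceeded NPC at least 20.3-fold (adjusted p = 0.0186).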

How the data were processed

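RNA of 5 mouse cell lines (0.25 µg each, per the labels' protocols) was hybridised to 1-colour Agilent arrays. The files hold 1 intensity per spot on a linear scale. Per the file headers this deposited intensity came out of Agilent Feature Extraction 10.7.3.1 with background and spatial trends removed, and probe positions are on mm7. No normalization between arrays is recorded. The deposited value table equalled these intensities on 100% of spots (column medians 41.5 to 69.3, linear, not centred).

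From the log2 intensity that of the array's 75th percentile (590 to 1070 in signal units) was subtracted here. Control spots and spots with an outlier flag were not used, and repeated spots of a probe were averaged. Of 41174 probes 22944 were named through RefSeq accessions (GRCm38.p6). Probes were tested if all arrays of some group had them well above background, and the probe with the highest mean stood for its gene. Where no array of a group had a gene well above background, "at least" marks a lower bound. It is the mean of the brighter group over the mean, across the dimmer group's arrays, of a floor: the array's lowest signal well above background, or the probe's own where that was higher. The test was limma 3.58.1 under R 4.3.3 (lmFit, eBayes, two-sided, Benjamini-Hochberg over 19308 genes) in 1 fit of all 5 arrays. The lone NPC array was assumed to vary like the pairs. The fit was tried on simulated data with the same spread on every array. The pairs here differ in spread, so that trial does not cover unequal spread. With 2 arrays against 2, exact permutation reaches p = 0.333 at best. A summed level is log2 of the summed relative signals of a marker list, values not well above background included.

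The members and lists were chosen with earlier results of these data known. The HNF1, NF-kB and IRF motifs were shortened by 1 base after a first search, which widened the matches. C1s2 and C4a were named as copies of members. Otherwise the genes named were all members, by role, and of the other complement genes up to 4 that were called. Of these, some are not reported here. The alternatives were other scalings, normexp, other filters, the mean over probes, fits of fewer arrays and slide as a block. Masp1 by its RefSeq probe was added after seeing the data. Figures were drawn with matplotlib 3.10.9.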

Additional observations from a re-analysis of the deposited data

How the results depend on the processing

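With 5 arrays the precision is low, and for dim probes signal over background limits it further. In the order iHPC against NPC, iHPC against HPC and HPC against NPC, 7, 8 and 11 complement genes were called. Counts were within 1.5 times of these with quantile normalization, median centring, normexp, the mean of all tested probes and the RefSeq probe of Masp1. Median centring moved the median difference of all genes to 0.09, -0.20 and 0.29, and normexp to 0.18 (iHPC against HPC) and -0.19 (HPC against NPC). Without the filter on dim probes 4 and 5 were called in the first and second comparison (0.838% and 1.56% of all genes). With probes required to be well above background throughout 1, 4 and 5 were, of 11 complement genes left (3.26%, 4.06% and 15.5% of all genes). A fit of only the groups compared called 17 for iHPC against NPC (34.9% of all genes) and 0 for HPC against NPC (0% of all genes; 14 complement genes at an unadjusted p under 0.05). Scan day was not fitted as a block. The arrays of the scan day that iHPC and NPC share are those of the iHPC and NPC fit above. Keeping only that day therefore repeats that fit and is no second check. No such fit was made for HPC, whose days hold no other group. Leaving out 1 array gave 0 to 17, 0 to 17 and 0 to 19: the low ends are without an iHPC array, when the HPC pair alone gives the spread. Slide as a random block could not be estimated. No paired analysis was possible because the labels give the arrays no shared replicate numbers.

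Single genes changed direction only where they had not been called, and the cause was not tested. With quantile normalization C1qb was at -0.11 (iHPC against HPC) and 0.26 (HPC against NPC), and with median centring at -0.11 and 0.27. Median centring put Cfp at -0.062 and C4bp at -0.082 (iHPC against HPC). With normexp C3ar1 was at -0.023, 0.028 and -0.050 in the order above, Mbl1 at -0.13 (iHPC against NPC), and C4b and Hc at -0.093 and -0.53 (HPC against NPC). Masp1 was at 0.35 (HPC against NPC) with the mean of probes and at -0.54 (iHPC against NPC) with its RefSeq probe. Leaving out 1 array gave C1qb -0.39 to 0.56 (iHPC against NPC), -0.34 to 0.61 (iHPC against HPC) and -0.33 to 0.23 (HPC against NPC), and Mbl1 -0.10 to 0.40 (iHPC against NPC). It gave C4bp -1.71 to 2.05 and Cd59a -0.63 to 3.03 (iHPC against HPC), and Hc -0.31 to 0.59 (HPC against NPC). C4bp at -1.71, without HPC replicate 2 (HNG2), passed the test (adjusted p = 0.0121).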

Other observations

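A few probes beside the complement genes fall outside the naming rule. A probe that the array design names A530026G17, which RefSeq gives as a synonym of C7, was not well above background on any array. A probe that the design names C1r, with no current symbol found for its accession, was at -2.97 and -2.62 in iHPC 9F and 10F, at -4.98 and -6.26 in HB1 and HNG2, and at -1.71 in NPC.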
